A study of Saccharomyces cerevisiae with 4 samples.

Results

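The maltose utilization genes of budding yeast (Saccharomyces cerevisiae) were compared between a wild type and a mutant in which 8 lysines of histone H3 had been changed to glycine. The set was MAL11, MAL12, MAL13, MAL31, MAL32, MAL33, MPH2 and MPH3, and its members were all probe sets that the array platform's table pairs with any of these genes, with no filter on signal. They came to 8 probe sets for the 8 genes, out of 9335 probe sets and 5923 genes on the array. A probe set is a group of oligonucleotides read together as a single signal. For 5 of the 8 the table gave 1 gene, and the other 3 were shared with a second gene.

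Each strain had 2 one-colour arrays of total RNA from mid-log cells in rich glucose medium (YPD). In the mutant the changed lysines of H3 were those at positions 4, 9, 14, 18, 23, 27, 36 and 79. The wild type had no listed change, and its labels name it as the control of a second mutant as well, with lysines 4, 36 and 79 changed. The labels give no strain background, mating type or ploidy, and do not say whether replicates were separate cultures, so the spread behind each p-value is that among these 4 arrays and may be technical.

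Maltose is a disaccharide of glucose. A yeast MAL locus carries a transporter gene that brings maltose in by proton symport, a maltase gene whose product splits it into glucose, and a gene for a zinc-cluster activator that turns on both when maltose is present. The transporter and maltase genes are transcribed away from each other from a shared promoter region, and glucose represses them through Mig1. MAL loci lie near chromosome ends, and the reference laboratory strain is known to hold the MAL1 and MAL3 loci without a working activator.

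The maltose transporter and maltase genes gave higher signals in the mutant, although the medium held glucose. Of the 8 member probe sets, 6 rose, 0 fell and 2 did not pass the test (limma on log2(signal + 16), Benjamini-Hochberg adjusted p below 0.05 over 9275 probe sets). At an unadjusted threshold of 0.05, 7 were higher and 0 lower. At that threshold 1681 of all 9275 fitted probe sets were higher and 1346 lower. The unadjusted counts of neighbours and lists below have these same numbers as their comparison. After adjustment 9.19% of all fitted probe sets were called higher and 5.02% lower. The median difference of the members was 0.64 on the log2(signal + 16) scale, against 0.01 for all fitted probe sets. In 7 of the 8 both mutant arrays lay above both wild-type arrays, an order that 32.6% of all probe sets showed. Leaving out 1 array lost most of the adjusted calls. They fell to 0 members without wild-type replicate 1, 0 without wild-type replicate 2, 1 (MAL11) without mutant replicate 1 and 2 (MAL11 and the maltase probe set) without mutant replicate 2, while 6, 6, 6 and 7 members were higher at the unadjusted threshold.

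Most of these transcripts were dim. Of the members, 7 of 8 had a mean log2 value at or above the 25th percentile of all fitted probe sets, which lies at a signal of 12.7, and 2 of 8 were at or above the median. The offset of 16 in the log understates the change of such dim probe sets, so the ratio of mean signals is given as well. These are signals of whole cultures, in which more cells expressing a gene and more RNA per cell cannot be told apart. Signals are not compared between probe sets, which differ in how well they bind.

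MAL11, also known as AGT1, encodes the broad alpha-glucoside transporter of the MAL1 locus and had the largest log2 difference of the 8 with the offset of 16. With an offset of 1 the maltase probe set had a larger one (1.99 against 1.89). The MAL11 signals were 37.2 and 32.8 on the wild-type arrays and 132.7 and 131.8 on the mutant arrays. The groups were far apart and the mutant arrays nearly equal. The ratio of mean signals was 3.78, and the log2 difference was 1.54 ± 0.0981 (SE, n = 2 each), with an adjusted p of 0.00175.

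MAL31, the maltose transporter gene of the MAL3 locus, had signals of 25.8 and 21.4 in wild type, against 42.7 and 44.8 in the mutant. The mutant arrays were both higher, by a ratio of means of 1.85. Its log2 difference of 0.60 ± 0.111 (SE, n = 2 each) passed the test with an adjusted p of 0.0259. Under scaling to the hybridization controls it was 0.32 and did not pass (adjusted p = 0.128).

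MPH2 and MPH3 encode alpha-glucoside transporters related to the MAL permeases and lie near ends of chromosomes IV and X. The probe set paired with both genes gave 16.6 and 17.5 in wild type, against 50.2 and 50.1 in the mutant. That is a ratio of 2.94 and a log2 difference of 1.00 ± 0.0985 (SE, n = 2 each), with an adjusted p of 0.00537. The probe set paired with MPH2 alone gave 5.2 and 7.3 in wild type, against 24.3 and 15.5 in the mutant. It was low in wild type and uneven between the mutant arrays, but the groups did not overlap. Its log2 difference was 0.68 ± 0.138 (SE, n = 2 each), with an adjusted p of 0.0327. No probe set was paired with MPH3 alone, so the shared signal cannot be divided between the genes.

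The maltase genes MAL12 and MAL32 of the MAL1 and MAL3 loci share 1 probe set and cannot be told apart. Its signals were 8.2 and 7.4 in wild type, against 39.4 and 29.1 in the mutant. Wild type was near the bottom of the scale and both mutant arrays were well above it. The ratio of means, 4.39, was the highest among the 8 members, and the log2 difference was 1.07 ± 0.127 (SE, n = 2 each), with an adjusted p of 0.00846. Against a wild-type mean of 7.8 the ratio depends strongly on the background left in the signal, and the log2 difference was 1.99 with an offset of 1 and 0.45 with an offset of 64.

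**Figure D1:**
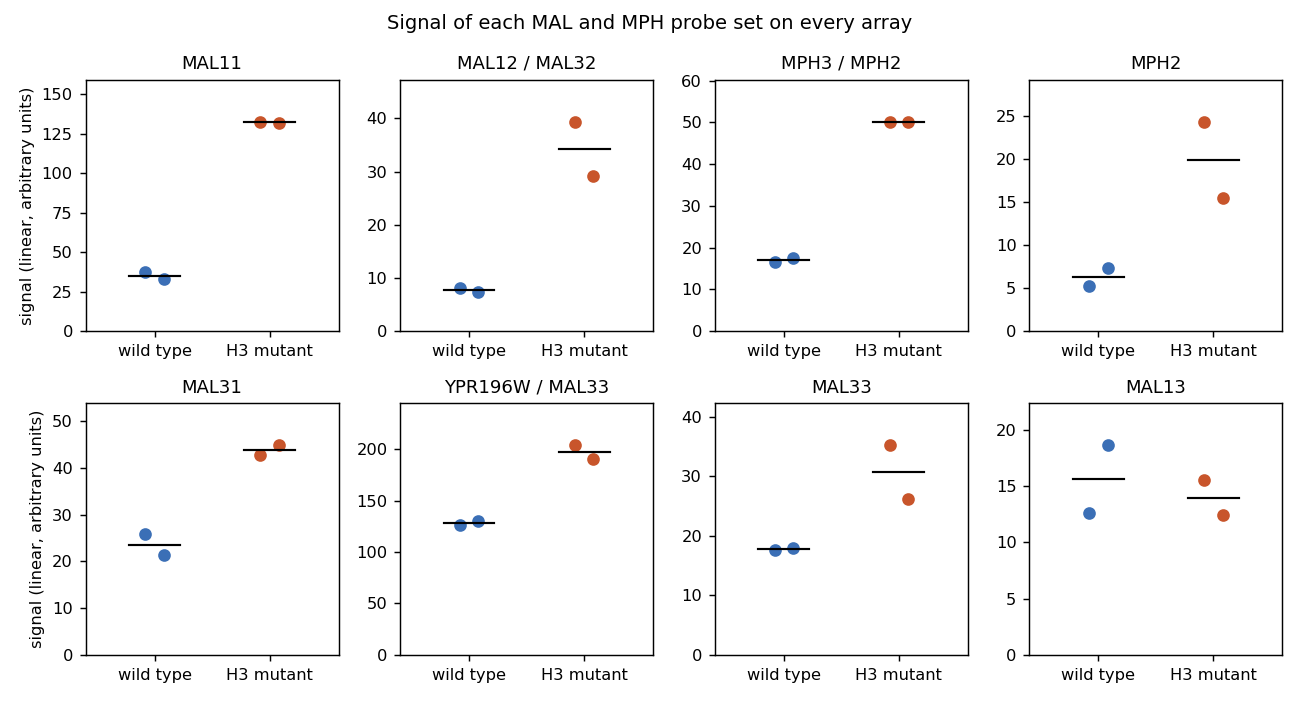
Signal (linear, arbitrary units, vertical axis from 0) of the 8 MAL and MPH probe sets on the 2 wild-type arrays (blue) and the 2 H3 mutant arrays (orange), with a bar at each group's mean. The mutant points lie above the wild-type points in 7 panels and overlap them for MAL13, and each panel has its own scale.

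Of the 3 probe sets that read activator genes, the 1 shared with YPR196W rose and the other 2 did not pass. MAL13, the activator gene of the MAL1 locus, had signals of 12.6 and 18.6 in wild type, against 15.5 and 12.4 in the mutant. It was the 1 member whose groups overlapped. Its log2 difference was -0.07, with a 95% interval from -0.39 to 0.24 and an adjusted p of 0.727. MAL13 lies next to MAL11 on chromosome VII, and the MAL11 interval, 1.29 to 1.79, was wholly above its own.

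The difference in response between MAL13 and each of the other 7 probe sets was tested by an exact two-sided permutation of the array labels. The MAL11 difference exceeded that of MAL13 by 1.61, and the other 6 exceeded it by 0.53 to 1.14. Each of the 7 comparisons gave an exact p = 0.333, also after adjustment. That is the smallest value that this permutation of 2 arrays against 2 can give. No outcome could have passed the threshold, so the permutation cannot decide whether the responses differ, and no conclusion is drawn from it. MAL13 had the lowest log2 difference of the 8 members, so each of the 7 differences from it was bound to be positive.

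MAL33, the activator gene of the MAL3 locus, is read by 2 probe sets. The probe set paired with it alone gave 17.6 and 17.9 in wild type, against 35.2 and 26.2 in the mutant, with mutant arrays higher but unequal. Its log2 difference of 0.46 ± 0.126 (SE, n = 2 each) did not pass, with an adjusted p of 0.0680. It did pass in the fit with a filter at the 25th percentile of signal (adjusted p = 0.0325), with only probe sets of 1 gene (0.0351), with median centring (0.0423) and with a robust prior (0.0472).

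The probe set shared by MAL33 and YPR196W, a putative activator gene of the same family, gave 126.1 and 129.8 in wild type, against 203.7 and 190.3 in the mutant. The mutant arrays were higher by a ratio of means of 1.54. Its log2 difference was 0.56 ± 0.0850 (SE, n = 2 each), with an adjusted p of 0.0156, and it was 0.18 (adjusted p = 0.364) under scaling to the hybridization controls. The probe set paired with YPR196W alone gave 12.7 and 13.3 against 11.8 and 9.0, a log2 difference of -0.14 (adjusted p = 0.344). Which of the genes the shared signal comes from was not tested.

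**Figure D2:**
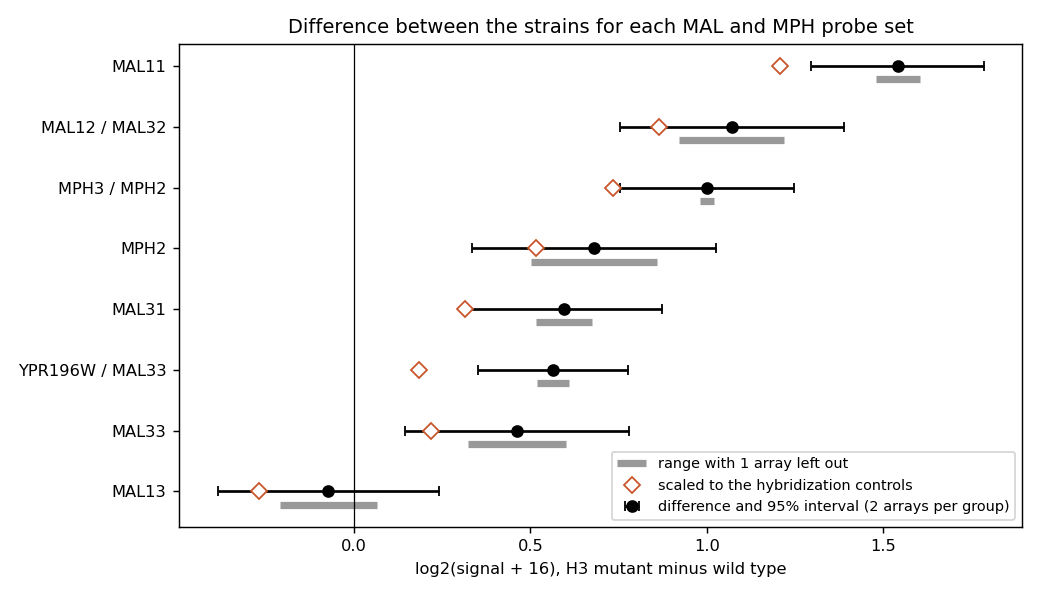
Difference in log2(signal + 16), H3 mutant minus wild type (horizontal axis), for the 8 MAL and MPH probe sets: black points with 95% intervals, grey bars for the range when 1 of the 4 arrays is left out, open diamonds after scaling to the hybridization controls. MAL11 stands at 1.54, MAL13 at -0.07, and the diamonds lie to the left of the points.

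The arrays are scaled to a common level, and the size of the differences rests on that. The biotin-labelled controls added at hybridization gave more signal on the mutant arrays. Their geometric mean was 138 and 141 on the wild-type arrays, against 174 and 201 on the mutant arrays. Scaling to these 9 probe sets moved the median difference of all probe sets from 0.01 to -0.23 and that of the members from 0.64 to 0.42. With it 4 of the 8 members rose, namely MAL11 (1.21), the maltase probe set (0.86), the shared MPH probe set (0.73) and MPH2 (0.51). Of all 9275 fitted probe sets, 404 were called higher and 2656 lower with that scaling. Over all probe sets 64.6% of calls were higher without it, against 13.2% with it. The signal ratio between the 3′ and 5′ probe sets of actin, a measure of RNA quality, was 1.56 and 1.51 on the wild-type arrays and 1.49 and 1.59 on the mutant arrays, so the groups overlapped. The same ratio was larger for SPT15 (3.07 and 4.13 against 4.10 and 3.65) and SRB4 (2.29 and 1.87 against 2.15 and 2.71). There too the groups overlapped.

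The strains also differed in cell-type markers. All 6 genes that mark a-type cells fell in the mutant, with summed signals of 2215 and 2494 in wild type, against 105.4 and 101.6 in the mutant. They were MFA1, MFA2, STE2, STE6, BAR1 and ASG7. Of 4 alpha-type markers SAG1 rose, from a mean of 43.0 to 111, and MF(ALPHA)1, MF(ALPHA)2 and STE3 did not pass. The alpha-type sums were 90.3 and 85.1 against 155.8 and 152.2, a gain that lay in SAG1, and none of the 10 markers was at 0 on every array. Their part in the maltose gene differences was not tested. Any further difference between the strains and the H3 change cannot be told apart.

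Of the probe sets for the nearest genes around the maltose genes, 15 of 23 rose, where 9.19% of all fitted probe sets did. Of the 28 genes that are not members and lie between the genes of a cluster or within 5 genes of it in the RefSeq gene order, TYC1 and YDL242W were not analysed here. The rest were read by 23 probe sets, since some near-identical genes share one. Of these 23, 15 rose, 0 fell and 8 did not pass (limma; 17 higher and 2 lower at the unadjusted threshold), with a median log2 difference of 0.66. Several of the 23 are shared with genes elsewhere in the genome. With only probe sets of 1 gene, 8 of 15 rose, against 800 of 6504 over all such probe sets. Within 10 genes on each side 18 of 42 rose and 2 fell, with a median of 0.33. In that wider window 4 of 13 rose around the MAL1 locus, with a median of -0.0027, and 8 of 11 around MPH3, with a median of 0.78. Scaling to the hybridization controls left 9 of the 15 calls within 5 genes. With 1 array left out the higher calls were 0 without wild-type replicate 1, 0 without wild-type replicate 2, 1 without mutant replicate 1 and 1 without mutant replicate 2.

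On chromosome VII, 4 of the 8 probe sets around the MAL1 locus rose. IMA1, an isomaltase gene next to MAL13, rose from 10.2 ± 0.283 to 20.1 ± 2.12 (SD, n = 2 each; log2 difference 0.46, adjusted p = 0.0294), and the biotin synthase gene BIO2 beyond it rose by 0.39 (adjusted p = 0.0459). Under scaling to the hybridization controls neither passed, with differences of 0.27 for IMA1 (adjusted p = 0.117) and 0.01 for BIO2. Farther from the chromosome end, ZUO1, ERV29 and UPA1 gave -0.02, 0.00 and -0.24 and did not pass. On the other side, toward the chromosome end, COS6, of a subtelomeric membrane protein family, rose from 453.0 and 437.6 to 774.8 and 811.6. MAL13 lay between IMA1 and MAL11.

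On chromosome II, SUL1, PCA1 and PHO89 lie on the inner side of the MAL3 locus and rose. PCA1, a cation-exporting ATPase gene, rose from 36.7 and 35.7 to 100.8 and 108.6, with a log2 difference of 1.21. PHO89, a sodium-phosphate cotransporter gene, rose from 24.5 and 28.4 to 52.9 and 74.8, and SUL1, a sulfate permease gene, rose by 0.66. On the outer side, the probe set that COS2 shares with COS1, COS3 and COS4 rose by 0.86 (adjusted p = 0.00705). VBA2, beyond SUL1, gave -0.35 (adjusted p = 0.0798). YBR298C-A, a small reading frame placed between MAL31 and MAL32, had signals of 0.7 and 1.2 in wild type, against 0.9 and 0.6 in the mutant. It lay near the bottom of the scale on all arrays, while the probe sets of both genes beside it rose.

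The genes next to MPH2 and MPH3 are partly copies of each other, and so are their signals. AAD4, an aryl-alcohol dehydrogenase gene 4 genes from MPH2, had the largest difference of these neighbours, 1.75 (304.9 and 323.9 in wild type, 1051 and 1142 in the mutant, adjusted p = 0.000933). SOR2 and SOR1, sorbitol dehydrogenase genes directly beside MPH2 and MPH3, share a probe set that rose by 0.63 (adjusted p = 0.0173) and did not pass under scaling to the hybridization controls (0.29, adjusted p = 0.179). The probe set shared by HXT15 and HXT16, each the next gene beyond these, and by HXT13 and HXT17, all hexose transporter family genes, rose from 35.9 and 34.1 to 99.2 and 92.4, with a log2 difference of 1.13. Another probe set shared by THI11, THI13 and related thiamine synthesis genes rose by 0.93 (adjusted p = 0.00582). AAD10, near MPH3, rose by 0.84. The probe set of COS7 alone and that of YJR154W gave 0.35 and 0.30 and did not pass. COS5, on the other side of MPH3, shares a probe set with COS7. It rose from 109.9 and 140.4 to 248.9 and 201.7 (log2 difference 0.78, limma adjusted p = 0.0288). Under scaling to the hybridization controls it did not pass (0.39, adjusted p = 0.138).

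**Figure D3:**
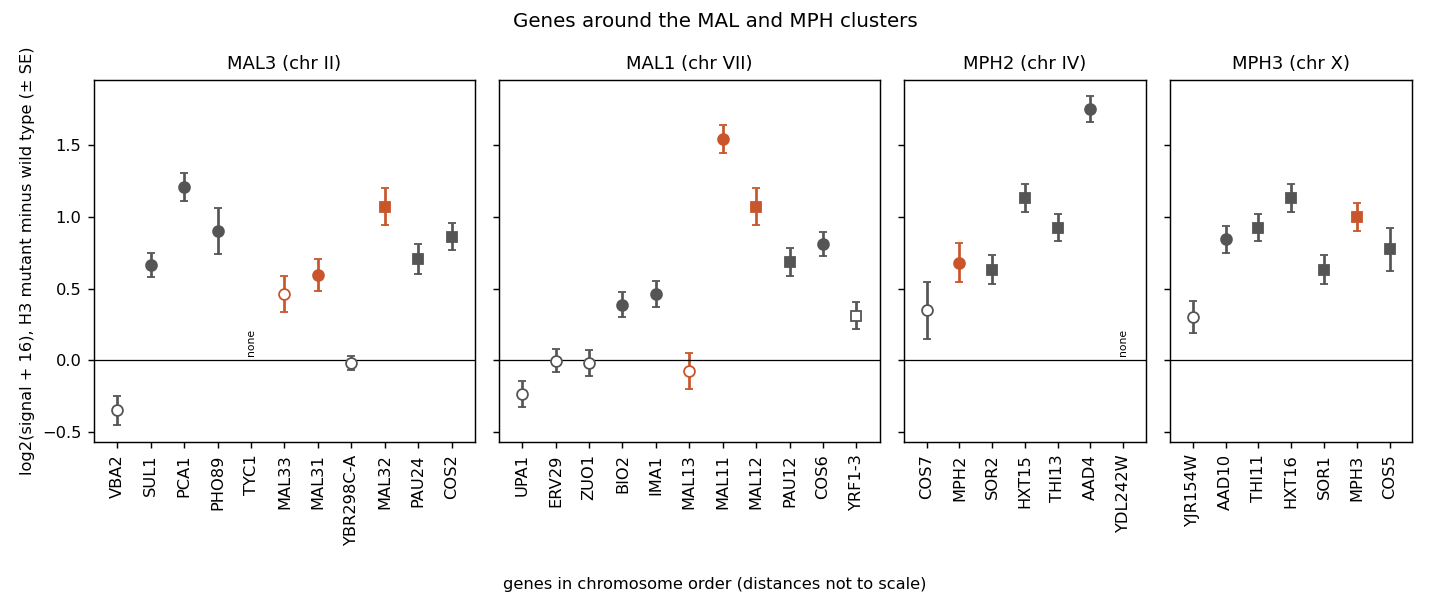
Difference in log2(signal + 16), H3 mutant minus wild type, with SE (vertical axis) for genes in chromosome order around each cluster. Orange marks the MAL and MPH genes, squares mark shared probe sets, filled symbols passed the test, "none" marks genes not analysed, and MAL13 stands near 0 between IMA1 and MAL11.

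Other enzymes that free glucose from sugars gave mixed values. The list held IMA1 to IMA5, SUC2 and SGA1, and of its 5 probe sets 3 rose, 0 fell and 2 did not pass (limma; 3 higher and 0 lower at the unadjusted threshold), with a median difference of 0.46. The shares over all fitted probe sets were 9.19% higher and 5.02% lower. The probe set shared by IMA1, IMA2, IMA3 and IMA4, closely related isomaltase genes, rose from 40.3 and 33.9 to 105.2 and 100.6 (log2 difference 1.17 ± 0.108 SE, n = 2 each, adjusted p = 0.00444). SGA1, the glucoamylase gene of sporulating cells, rose from 30.7 and 38.0 to 258.8 and 265.5. IMA5 gave 11.6 and 4.2 against 10.5 and 7.7 and did not pass. SUC2, the invertase gene and a standard Mig1-repressed gene, gave 55.7 and 56.7 against 49.0 and 46.4, a log2 difference of -0.18 (adjusted p = 0.263). Under scaling to the hybridization controls SUC2 was lower by the test (-0.50, adjusted p = 0.0374).

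The galactose genes are the other well-known sugar regulon under glucose repression. Of 7, 1 rose, 0 fell and 6 did not pass (limma; 4 higher and 1 lower at the unadjusted threshold), and the median was 0.25. Over all fitted probe sets 9.19% were called higher and 5.02% lower, while 1681 of 9275 were higher and 1346 lower at the unadjusted threshold. A single call among 7 genes is not read as more than the adjusted share. GAL4, the activator gene of the regulon, rose from 12.7 and 8.4 to 23.0 and 20.4 (log2 difference 0.51, adjusted p = 0.0419). GAL1, the galactokinase gene, gave 3.6 and 5.9 against 9.9 and 20.6 and did not pass (adjusted p = 0.0849). GAL2, GAL7, GAL3 and GAL10 gave differences of 0.25, 0.27, 0.14 and 0.12, and GAL80, the regulon's repressor gene, gave -0.34 (adjusted p = 0.0920). Under scaling to the hybridization controls GAL4 did not pass (0.31, adjusted p = 0.113), GAL1 was higher by the test (0.42, adjusted p = 0.0424) and GAL80 was lower (-0.70, adjusted p = 0.0170). Whether the maltose genes responded more than the galactose genes was not tested.

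The glucose repression machinery was read by a list of 18 genes. Of these 1 rose, 0 fell and 17 did not pass (limma; 1 higher and 5 lower at the unadjusted threshold), with a median of -0.05, beside 9.19% higher and 5.02% lower over all fitted probe sets. The 1 that rose was RGT1, a repressor of hexose transporter genes, from 104.9 and 97.2 to 179.2 and 170.2 (log2 difference 0.70, adjusted p = 0.00969). MIG1, whose product represses the MAL genes in glucose, gave 48.1 and 38.0 in wild type, against 32.4 and 28.9 in the mutant. Both mutant arrays were lower, an order that 28.0% of all probe sets showed, and the log2 difference of -0.34 did not pass (adjusted p = 0.139). Of the 18 list genes, 7 had both mutant arrays lower, 3 had both higher and 8 overlapped. MIG2 and MIG3 gave -0.01 and 0.06 with overlapping groups, and REG1 gave 0.21 with both mutant arrays higher. TUP1 and CYC8, which form the corepressor that Mig1 recruits, gave -0.39 (adjusted p = 0.0676) and -0.30 (adjusted p = 0.106). SNF1, the kinase gene that opposes Mig1, gave -0.10. Under scaling to the hybridization controls the differences of MIG1, TUP1, CYC8 and SNF1 were -0.62, -0.79, -0.66 and -0.45, each past the threshold, while RGT1 did not pass (0.33, adjusted p = 0.122). With that scaling 7 of the 18 fell, GAL83, GLC7 and STD1 among them, and 0 rose. It also called 2656 of all 9275 fitted probe sets lower and 404 higher. The median of the list was then -0.37, against -0.23 for all fitted probe sets.

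Of 4 genes for phosphorylation of glucose, 2 rose, 0 fell and 2 did not pass (limma; 2 higher and 0 lower at the unadjusted threshold), with a median of 0.31. For comparison, 9.19% of all fitted probe sets were called higher and 5.02% lower. GLK1, the glucokinase gene, rose from 502.0 and 459.6 to 662.4 and 782.1 (adjusted p = 0.0305), and EMI2, its paralog, rose from 25.6 and 27.5 to 42.8 and 42.4 (adjusted p = 0.0389). Both calls were lost under scaling to the hybridization controls, with adjusted p of 0.382 and 0.361, and the median became -0.05. HXK1 and HXK2, the hexokinase genes, gave 0.15 and 0.06.

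Among 10 genes for chaperones of the MAL activator and for turnover of the maltose permease, 1 rose, 1 fell and 8 did not pass, with a median of 0.06 (4 higher and 3 lower at the unadjusted threshold). These counts are near the shares over all fitted probe sets, 9.19% higher and 5.02% lower. HSP82, an Hsp90 gene, rose from 436.6 and 414.2 to 817.3 and 850.7 (log2 difference 0.95, adjusted p = 0.00393). HSC82, the other Hsp90 gene of the list, gave 0.28 and did not pass (adjusted p = 0.136). Under scaling to the hybridization controls HSP82 still rose (0.54, adjusted p = 0.0211) and HSC82 gave -0.14. With that scaling 1 of the 10 rose and 4 fell, where 2656 of all 9275 fitted probe sets fell. RSP5, the ubiquitin ligase gene, fell from 225.0 and 238.4 to 172.9 and 180.1 (-0.36, adjusted p = 0.0450), a call lost with quantile normalization (adjusted p = 0.0626) and with the replicate block (adjusted p = 0.0734). ZNF1, a zinc-cluster gene related to the activators, was near the bottom of the scale in both strains, at 2.3 and 3.7 against 4.4 and 4.5. Over all 6 lists, the 8 higher calls became 1 and the 1 lower call 0 whichever of the 4 arrays was left out (wild-type replicate 1 or 2, mutant replicate 1 or 2).

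**Figure D4:**
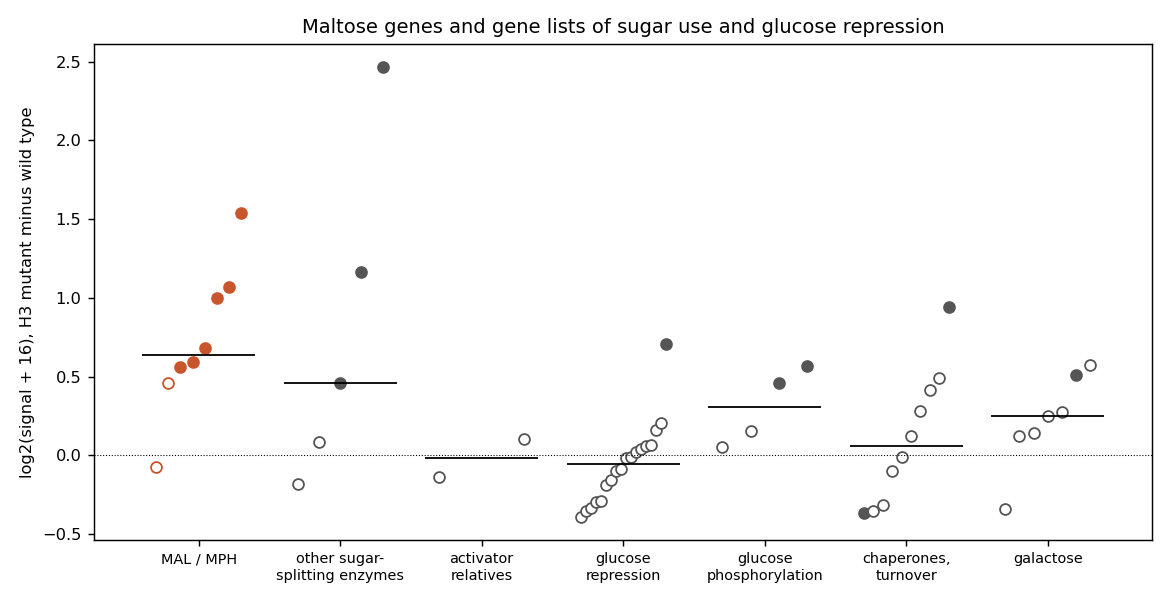
Difference in log2(signal + 16), H3 mutant minus wild type (vertical axis), for the MAL and MPH probe sets (orange) and for the probe sets of 6 gene lists (grey). Filled points passed the test and bars mark medians, which are 0.64 for the MAL and MPH probe sets and -0.05 for the glucose repression genes.

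The probe sets most like MAL11 across the 4 arrays were sought among 5683 probe sets with 1 gene and a mean log2 value at or above the 25th percentile, by Euclidean distance of the log2 values less their wild-type mean. The closest was AQY2, an aquaporin gene, at a distance of 0.0398, with signals of 43.3 and 40.4 in wild type, against 152.7 and 153.5 in the mutant. Then came AGX1, a glyoxylate aminotransferase gene, and UBC5, a ubiquitin-conjugating enzyme gene, at 0.111 and 0.122. RNR3, of ribonucleotide reductase, and BNA4, of NAD synthesis, followed at 0.139 and 0.149. Their log2 differences lay between 1.44 and 1.58. With 4 arrays in 2 groups this likeness is mainly a like size of difference.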

How the data were processed

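The deposited values are linear one-colour signal intensities between 0 and 7497, of which 79 are 0. Per the submitters' processing notes the authors used MAS5; which version, and what target it scaled to, is not given in these sources. No detection calls or read depth apply, and the number of arrays limits the precision. Probe sets were named from the platform's table (6504 with 1 gene, 328 with several, 2503 with none). Gene order came from the RefSeq gene table, without coordinates, since the array's build is not named.

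All 9275 probe sets other than the 60 controls were fitted with limma 3.58.1 (R 4.3.3; lmFit, then eBayes with an intensity trend) after log2(signal + 16), as the mutant mean less the wild-type mean, with 2 residual and 3.49 prior degrees of freedom. Adjustment was by Benjamini-Hochberg, at 0.05. The median SE was 0.103. The fit was also run on simulated data with independent noise, which checks the code and is no support for the results here. Log2 signals correlated at 0.994 and 0.992 within groups and 0.969 to 0.972 between them, across probe sets, which are not independent replicates.

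Members and lists were chosen with earlier results of these data known. Every member was named. For other genes the brightest probe set of that gene alone was used, or else a shared one. Lists of up to 7 genes were named in full, though some values are given only as counts or differences, longer ones by called members. Members were found in the platform's table by symbol. Other genes of the longer lists and the uncalled neighbours named were chosen after their values were seen, among them MIG1, TUP1, CYC8 and SNF1. So were the called neighbours beyond the 8 of smallest p (PHO89, BIO2, SOR1, SOR2 and COS5). Alternatives covered offsets, scaling, filters, variance model, the replicate block, thresholds and left-out arrays. Figures used matplotlib 3.10.9.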

Additional observations from a re-analysis of the deposited data

How the results depend on the processing

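Every alternative tried kept the direction of 7 of the 8 member probe sets, wherever they were tested. MAL13, which was not called, lay between -0.21 and 0.0646 with 1 array left out. It turned positive when wild-type replicate 2 (0.0646) or mutant replicate 2 (0.00196) was the one left out. With scaling to the hybridization controls 4 of the 8 members were called higher, and with only probe sets of 1 gene 4 of 5. With median centring, with a robust prior and at an adjusted p of 0.10, 7 were. Members called higher, 6 with all arrays, numbered 0 to 2 with 1 array left out, 3 at an adjusted p of 0.01, and 2 with a filter at the median, where 2 were tested; members called lower stayed at 0. List genes called higher, 8, numbered 1 with any 1 array left out, 4 with scaling to the hybridization controls and 4 at 0.01. List genes called lower, 1, numbered 4 with median centring, 0 with quantile normalization, 13 with scaling to the hybridization controls, 3 with a filter at the 25th percentile, 3 with a filter at the median, 3 with only probe sets of 1 gene, 0 with the replicate block, 0 with any 1 array left out, 0 at 0.01 and 5 at 0.10. Neighbours called higher, 15 of 23, numbered 18 of 42 with 10 genes on each side, 9 with scaling to the hybridization controls, 8 with only probe sets of 1 gene (15 tested), 0 to 1 with 1 array left out and 8 at 0.01. Neighbours called lower, 0, numbered 1 with median centring, 3 with scaling to the hybridization controls, 1 with a filter at the 25th percentile, 1 at 0.10 and 2 with 10 genes on each side. Apart from fewer arrays or probe sets tested and other thresholds, the cause was not tested.

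Same-numbered arrays of the groups deviated together only weakly (r = 0.0799 over probe sets), so the numbers were not taken to pair them; with the replicate block 6 members were called higher, as without it. Over all probe sets 852 were called higher and 466 lower. The counts were 404 and 2656 with scaling to the hybridization controls, 946 and 872 with median centring (52.0% higher), 958 and 733 with a filter at the 25th percentile, 251 and 69 at 0.01, 1326 and 962 at 0.10, and 13 to 104 and 6 to 49 with 1 array left out. Signals near the bottom of the scale, such as those of MAL12 and MAL32 in wild type, limit how large a ratio can be read.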
